A study of Homo sapiens with 12 samples.

Results

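The let-7 miRNA genes described here are 8 loci, MIRLET7A1, MIRLET7A2, MIRLET7A3, MIRLET7B, MIRLET7F1, MIRLET7F2, MIRLET7G and MIRLET7I. Their members were selected by overlap: a region from a list of AGO2-bound RNA belonged to the set when it met the annotated hairpin by at least 1 base. This gave 14 regions of 4111 in all, 6 of 1190 in the list for wild-type AGO2 and 8 of 2921 in the list for the 5xA mutant. The genes were listed because they held regions, so overlap, width, region ends and sharing are descriptions and were not tested.

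The RNA came from HCT116 cells, an established human colorectal carcinoma line, by eCLIP, in which ultraviolet light fixes RNA to protein and the RNA fragments that come down with the protein are sequenced. The design held 12 samples in 6 groups of 2, an input and an anti-FLAG immunoprecipitate (IP) for AGO2_KO cells, for FH-AGO2_WT cells and for FH-AGO2_5xA cells. All groups were cultured for 48 h and irradiated at 400 mJ/cm2. In 5xA a cluster of phosphorylated residues near the C terminus of AGO2 is changed to alanine, and the design asked which RNA each form binds. The tagged proteins were captured through their FLAG tag, and the labels do not say how they were expressed or whether a line is 1 clone. Each list merges the 2 IP replicates of its genotype, so no replicate error can be given, and the reads behind a region are unknown. The knockout IPs and all inputs were not analysed here.

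Argonaute proteins hold a mature miRNA and use its seed, bases 2 to 8 from the 5′ end, to find target mRNAs. A let-7 gene is transcribed as a long primary RNA, from which Drosha cuts a hairpin and Dicer then releases the 5p arm, the strand that usually acts, and the 3p arm, which is usually lost. The family is conserved from worms to humans, restrains growth genes such as HMGA2 and the RAS genes, and is held back in embryonic cells by LIN28 proteins.

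The family had 12 genes in the RefSeq miRNA table (GRCh38.p14, on which hg38 positions hold for the chromosomes). They encode 9 distinct 5p arms, each 22 bases long and all with the seed GAGGUAG. The arms are shown to mark how little the 5p arms of genes with a region differ from those of genes without. Seed bases are in capitals, and the sequences are those of RefSeq. The first group holds the 5 arms whose genes carried a region.
hsa-let-7a-5p: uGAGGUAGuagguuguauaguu
hsa-let-7b-5p: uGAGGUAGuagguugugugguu
hsa-let-7f-5p: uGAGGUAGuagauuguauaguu
hsa-let-7g-5p: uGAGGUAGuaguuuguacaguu
hsa-let-7i-5p: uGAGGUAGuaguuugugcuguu

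The 4 arms whose genes carried no region in either list follow.
hsa-let-7c-5p: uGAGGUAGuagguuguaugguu
hsa-let-7d-5p: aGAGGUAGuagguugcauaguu
hsa-let-7e-5p: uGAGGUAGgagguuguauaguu
hsa-miR-98-5p: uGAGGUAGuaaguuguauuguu

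With positions counted from 1 at the 5′ end of let-7a-5p, let-7f-5p differs from it by G12A and let-7b-5p by A17G and A19G. let-7g-5p differs by G12U and U18C, and let-7i-5p by 4 substitutions, G12U, A17G, U18C and A19U. Among the arms of genes with no region, let-7c-5p differs from let-7a-5p by A19G alone and let-7e-5p by U9G alone. let-7d-5p differs by U1A and U16C, and miR-98-5p by G11A and A19U. The 5p arms of genes with no region thus differ from let-7a-5p by 1 or 2 bases, as do let-7b-5p, let-7f-5p and let-7g-5p. This compares the 5p arms only, not the rest of the hairpins.

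The next sequences show which bases of each hairpin lay under a region. Each hairpin is given 5′ to 3′ from RefSeq with the bases under the region in capitals and the rest in lower case. MIRLET7A1 lies at chr9:94175957-94176036 on the plus strand, MIRLET7A2 at chr11:122146522-122146593 on the minus strand and MIRLET7A3 at chr22:46112749-46112822 on the plus strand, and all encode let-7a-5p.
MIRLET7A1, WT and 5xA lists: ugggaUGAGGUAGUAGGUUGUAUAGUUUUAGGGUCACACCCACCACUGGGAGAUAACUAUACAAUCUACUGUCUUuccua
MIRLET7A2, WT list: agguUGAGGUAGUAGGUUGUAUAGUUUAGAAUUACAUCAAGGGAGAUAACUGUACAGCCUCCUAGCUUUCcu
MIRLET7A2, 5xA list: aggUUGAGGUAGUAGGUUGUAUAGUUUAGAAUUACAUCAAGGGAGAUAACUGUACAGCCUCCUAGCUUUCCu
MIRLET7A3, WT list: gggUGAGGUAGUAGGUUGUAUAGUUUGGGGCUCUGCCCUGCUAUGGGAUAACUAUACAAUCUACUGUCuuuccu
MIRLET7A3, 5xA list: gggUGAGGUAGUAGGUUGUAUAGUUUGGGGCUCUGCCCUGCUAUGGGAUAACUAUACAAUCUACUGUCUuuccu

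MIRLET7B lies at chr22:46113686-46113768 on the plus strand. MIRLET7F1 at chr9:94176347-94176433 on the plus strand and MIRLET7F2 at chrX:53557192-53557274 on the minus strand both encode let-7f-5p. MIRLET7G lies at chr3:52268278-52268361 on the minus strand and MIRLET7I at chr12:62603686-62603769 on the plus strand.
MIRLET7B, WT and 5xA lists: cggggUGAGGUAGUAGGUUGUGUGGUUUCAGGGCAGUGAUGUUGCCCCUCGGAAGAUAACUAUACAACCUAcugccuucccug
MIRLET7F1, 5xA list: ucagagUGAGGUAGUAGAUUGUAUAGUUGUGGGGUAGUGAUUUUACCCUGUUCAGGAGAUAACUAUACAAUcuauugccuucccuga
MIRLET7F2, WT and 5xA lists: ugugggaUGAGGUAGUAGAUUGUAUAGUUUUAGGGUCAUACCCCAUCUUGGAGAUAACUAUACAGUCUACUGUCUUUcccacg
MIRLET7G, 5xA list: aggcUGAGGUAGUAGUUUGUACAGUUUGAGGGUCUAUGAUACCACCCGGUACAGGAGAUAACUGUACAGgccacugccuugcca
MIRLET7I, WT list: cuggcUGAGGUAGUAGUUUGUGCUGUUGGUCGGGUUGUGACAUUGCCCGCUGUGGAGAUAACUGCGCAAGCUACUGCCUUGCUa
MIRLET7I, 5xA list: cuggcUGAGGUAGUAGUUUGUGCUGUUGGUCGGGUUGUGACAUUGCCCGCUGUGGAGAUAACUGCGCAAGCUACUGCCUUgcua

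The capitals begin at the first base of the 5p arm in 13 of the 14 regions. This held for all 6 WT regions and for 7 of 8 5xA regions. The exception was the 5xA region at MIRLET7A2, which began 1 base upstream. The whole 5p arm, seed included, lay under the region in 14 of 14 cases. Other miRNA genes with a 5p arm annotated had 31 pairs of a gene and a region. In 23 of them the region began at the first base of the 5p arm, and in 27 it covered the whole 5p arm. No region passed either end of its hairpin, and every region lay on the strand of its let-7 gene. The family hairpins met 0 regions on the opposite strand.

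**Figure D1:**
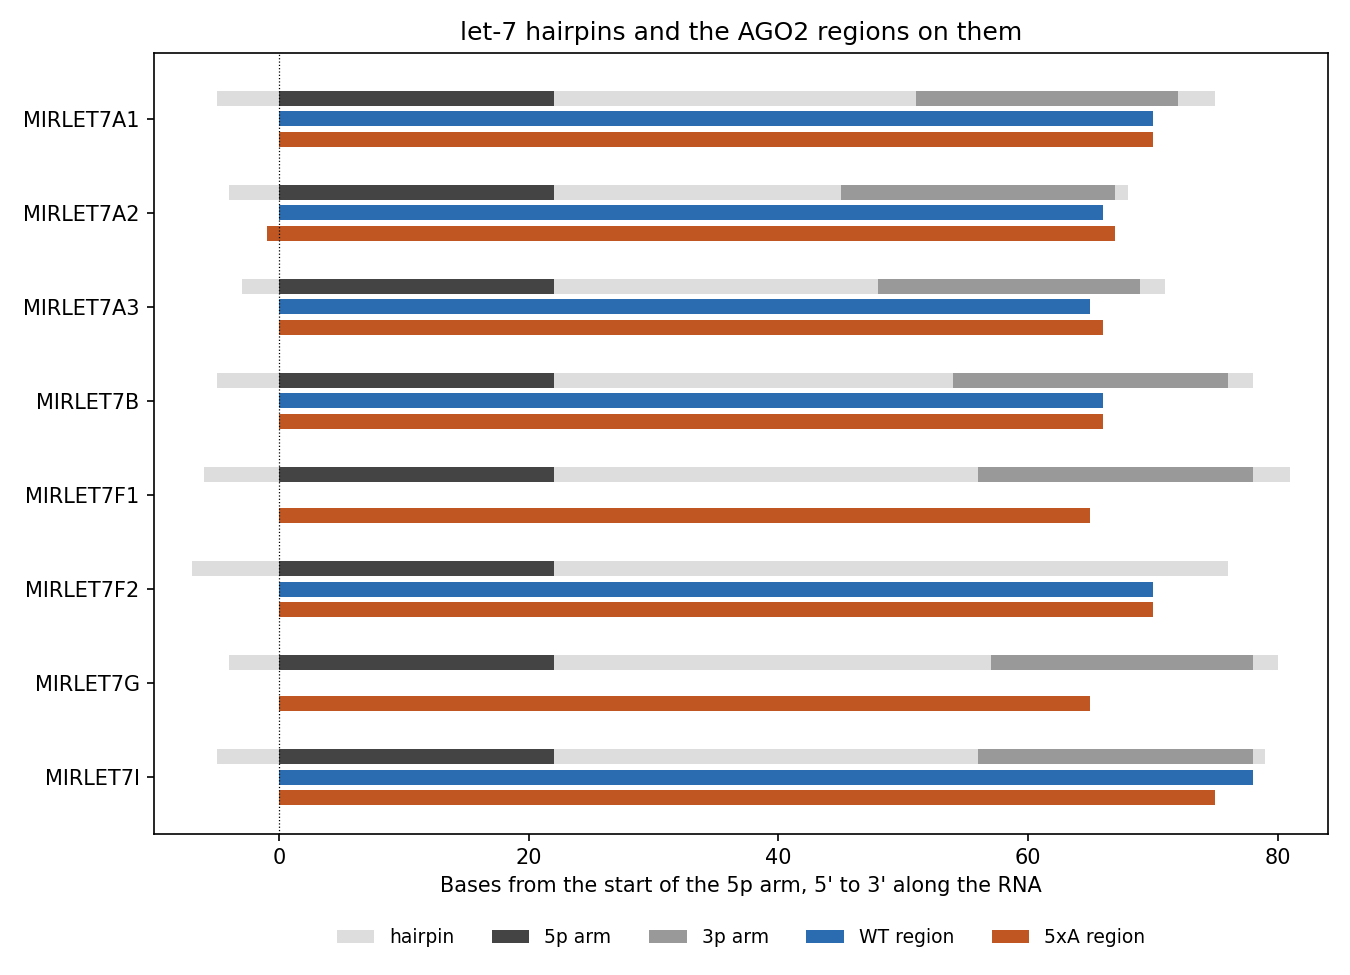
Map of the 8 let-7 hairpins aligned at the start of the 5p arm (x axis, bases along the RNA), with the hairpin in light grey, the 5p arm in dark grey, the annotated 3p arm in mid grey, the WT region in blue and the 5xA region in orange. Of the 14 regions, 13 begin at the first base of the 5p arm, while their 3′ ends fall 65 to 78 bases from it, and MIRLET7F1 and MIRLET7G have a 5xA region only.

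At the 3′ side the regions ran through the loop and stopped within the 3p arm or at its end. Of 12 regions at genes with an annotated 3p arm, 2 covered the arm whole and 10 covered part of it, from 8 to 21 bases. The table used holds no 3p arm for MIRLET7F2.

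The let-7a genes were covered nearly to the end of the 3p arm. At MIRLET7A1 the WT and 5xA regions each left 2 bases of the 3p arm uncovered. At MIRLET7A2 the WT region left 1 base and the 5xA region left 0. At MIRLET7A3 the WT region left 4 bases and the 5xA region 3. Among the 7 genes with both arms annotated, these have the fewest bases between the arms, with 29, 23 and 26 at MIRLET7A1, MIRLET7A2 and MIRLET7A3.

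Coverage of the 3p arm was least at MIRLET7F1, MIRLET7G and MIRLET7B, where 32 to 35 bases lie between the arms. For a region that begins at the 5p arm, this coverage is set by its width and the bases between the arms. These regions were 65 to 66 bases wide. A width of 65 was the commonest in each list, and the narrowest regions had 63 bases (WT) and 42 bases (5xA). The MIRLET7F1 region covered 9 of 22 bases and the MIRLET7G region 8 of 21 bases of the 3p arm, both in the 5xA list. At MIRLET7B both lists covered 12 of 22 bases. MIRLET7I differed from these, since its arms are 34 bases apart and its WT region still covered the 3p arm whole, ending at its last base. The 5xA region at MIRLET7I left 3 of 22 bases uncovered.

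Measured from the first base of the 5p arm, the let-7 regions reached 65 to 78 bases, with a median of 66. The span from the first base of the 5p arm to the last base of the 3p arm was 67 to 78 bases at these 12, with a median of 74. The reach fell short of the 3p end in 10 regions, met it in 2 and passed it in 0. At other miRNA genes with both arms annotated there were 28 pairs of a gene and a region. The 5xA region that spans MIR93 and MIR106B was counted for each gene. In 26 of the 28 the region also began within 2 bases of the 5p arm, and the median reach of these was 66 bases too. The median span was shorter there, at 64 bases, and 20 of these 26 regions passed the end of the 3p arm while 6 fell short of it. The other miRNA genes among those that fell short had spans of 87 to 92 bases, beyond any let-7 span. The median reach was therefore equal at let-7 and other miRNA genes, while the median span was not. The difference was not tested, since the genes were chosen for their regions. How the authors set the ends of a region was not given in the sources used here, so a region's 3′ end cannot be read as the end of an RNA.

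**Figure D2:**
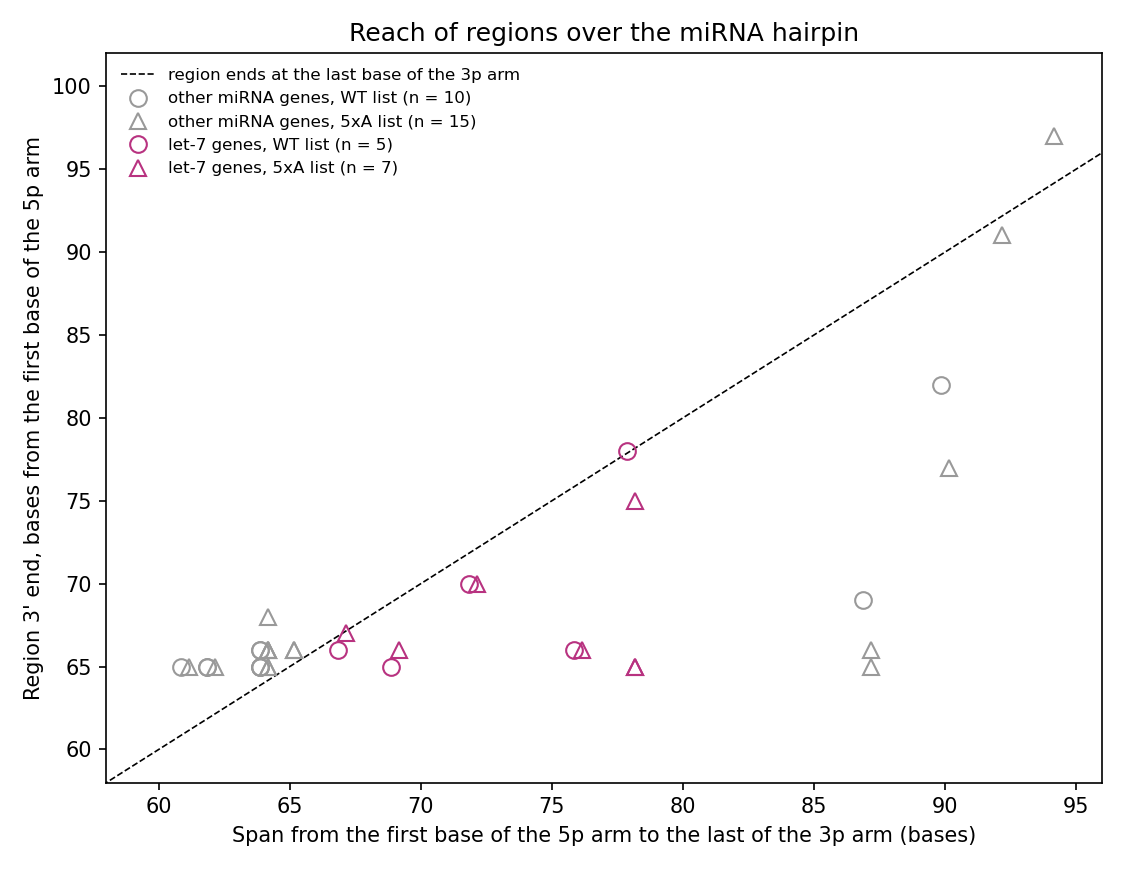
Position of the region 3′ end (y axis, bases from the first base of the 5p arm) against the span from the first base of the 5p arm to the last base of the 3p arm (x axis, bases) for 12 let-7 regions in magenta and 25 regions at other miRNA genes in grey, with circles for WT and triangles for 5xA, shifted slightly to either side so that both can be seen. The dashed line marks regions that end at the last base of the 3p arm. No let-7 point lies above it, and let-7 points at 65 to 66 bases occur at spans from 67 to 78 bases. Regions that reach over 100 bases or begin over 2 bases from the 5p arm (3 pairs of a gene and a region at other genes) are not drawn.

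As a share of the whole hairpin, the WT regions covered 79.5% to 92.9%, with a median of 87.7%, and the 5xA regions 74.7% to 94.4%, with a median of 85.9%. The 5xA regions were lowest at MIRLET7F1 (74.7%) and MIRLET7G (77.4%), the genes that had no WT region. MIRLET7B had 79.5% in both lists and MIRLET7F2 84.3% in both. MIRLET7A1 had 87.5% in both. MIRLET7A2 went from 91.7% in the WT list to 94.4% in the 5xA list and MIRLET7A3 from 87.8% to 89.2%, while MIRLET7I went from 92.9% to 89.3%. The ranges of the lists overlap, and the gene sets are not the same.

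The let-7 regions were narrow. In the WT list they measured 65 bases at MIRLET7A3, 66 at MIRLET7A2 and MIRLET7B, 70 at MIRLET7A1 and MIRLET7F2, and 78 at MIRLET7I, a median of 68. In the 5xA list they measured 65 at MIRLET7F1 and MIRLET7G, 66 at MIRLET7A3 and MIRLET7B, 68 at MIRLET7A2, 70 at MIRLET7A1 and MIRLET7F2, and 75 at MIRLET7I, a median of 67. MIRLET7I was thus the widest in each list. Over all regions the median was 114 bases in the WT list and 104 in the 5xA list, and at other miRNA genes it was 66 in each.

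A width of 65 bases was the commonest in each list, held by 1.85% of all WT regions and 3.01% of all 5xA regions. Among let-7 regions 1 of 6 had it in the WT list and 2 of 8 in the 5xA list. Of all WT regions 15.7% were no wider than the widest let-7 region of that list, and of all 5xA regions 22.3%. Widths of 65 to 70 bases took in 5 of 6 let-7 regions with WT and 7 of 8 with 5xA, beside 8.32% and 10.4% of all regions. Both limits match let-7 widths: the first is the widest let-7 region, and the band takes in every let-7 width but those of MIRLET7I. The let-7 shares within them were thus fixed, and nothing is read from the contrast with all regions. Of regions at other miRNA genes, 11 of 15 with WT and 15 of 25 with 5xA fell between 65 and 70 bases. By their medians, let-7 regions and those at other miRNA genes lay at the narrow side of each list.

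**Figure D3:**
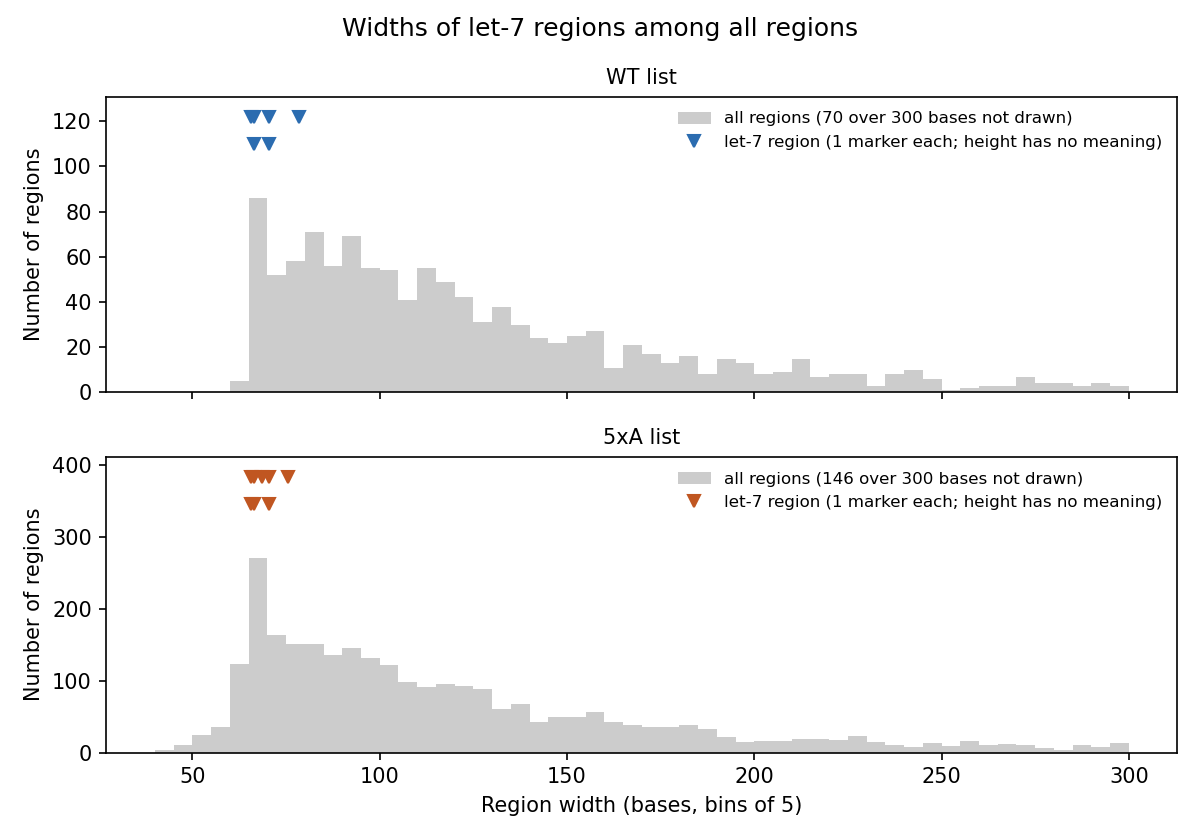
Number of regions by width (x axis in bases, bins of 5) in the WT list (top) and the 5xA list (bottom), with all regions in grey and each let-7 region as a coloured marker above the bars. All let-7 markers lie between 65 and 78 bases, at the narrow side of both distributions, whose medians are 114 and 104 bases.

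All 6 WT regions at let-7 genes overlapped a 5xA region, where 81.3% of all WT regions did. Of the 8 5xA regions at let-7 genes, 6 overlapped a WT region, where 32.3% of all 5xA regions did. Sharing is among the measures that chose these genes, so nothing is read from the difference. MIRLET7F1 and MIRLET7G were in the 5xA list only, and 0 let-7 genes were in the WT list only. Among other miRNA genes, 15 of the 26 with a 5xA region also had a WT region, and 0 had a WT region alone. With 1 list per genotype and a longer 5xA list, a gene missing from the WT list cannot be told apart from a difference in depth or threshold.

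The region at MIRLET7F1 spans chr9:94176353-94176417 and the region at MIRLET7G chr3:52268293-52268357. Both were 65 bases wide. Each began at the first base of the 5p arm, as the shared regions did except the 5xA region at MIRLET7A2. MIRLET7F2, which encodes the same 5p arm as MIRLET7F1, held a region in both lists. Counted by the 5p arm that a gene encodes and not by gene, regions in the WT list covered 4 arms, let-7a, let-7b, let-7f and let-7i, and those in the 5xA list these and let-7g. let-7g-5p differs from let-7i-5p at 2 positions.

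The ends of the shared regions moved little between the lists. At MIRLET7A1, MIRLET7B and MIRLET7F2 both ends were identical to the base. At MIRLET7A3 the 5′ end was the same and the 5xA region ended 1 base further downstream. At MIRLET7A2 the 5xA region was 1 base longer at each end, and at MIRLET7I it was 3 bases shorter at the 3′ end. No shift exceeded 3 bases, and the 5xA region was the wider at 2 genes, the narrower at 1 and equal at 3.

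Across the lists 847 region pairs overlapped 1 to 1, with no other partner. Both ends were identical in 1.65% of these and the 5′ end in 9.56%, against 3 and 5 of the 6 let-7 pairs. The 5′ ends of all pairs were a median of 12 bases apart and the 3′ ends also 12, against 0 and 0.5 for let-7. The other miRNA genes were closer to let-7 than to all pairs, with both ends identical in 4 of 13 pairs and the 5′ end in 9 of 13. Close agreement of ends was therefore also seen at other miRNA genes. The let-7 regions were narrower than most regions of the lists, and the comparison with all pairs was not matched for width. Both lists come from HCT116 cells, but from separate FH-AGO2_WT and FH-AGO2_5xA cells. Whether regions were called in the same way for each was not given in the sources used here.

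**Figure D4:**
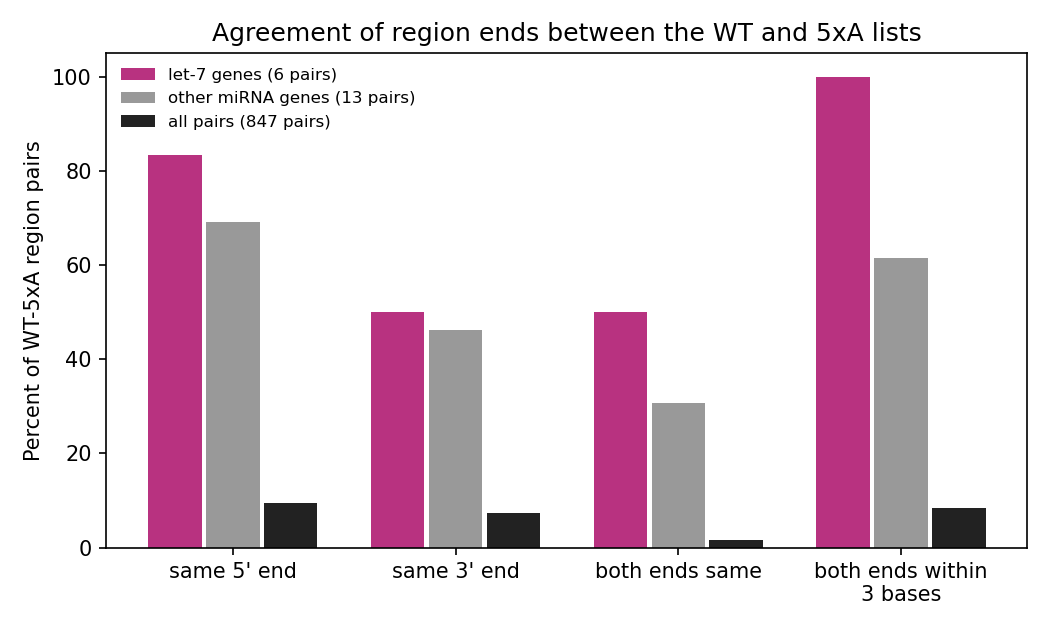
Percent of WT-5xA region pairs (y axis) with the same 5′ end, the same 3′ end, both ends the same, or both ends within 3 bases, for 6 let-7 pairs in magenta, 13 pairs at other miRNA genes in grey and all 847 pairs in black. Both ends are identical in 50% of let-7 pairs, 30.8% of pairs at other miRNA genes and 1.65% of all pairs; no error bars are drawn because each list pools its replicates.

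Several let-7 genes lie in clusters, and not every gene of a cluster held a region. Of 1901 other miRNA genes 1875 held a region in neither list, so a neighbour without one is the usual case. On chromosome 9 MIRLET7A1, MIRLET7F1 and MIRLET7D lie in this order, with 310 bases between MIRLET7A1 and MIRLET7F1 and 2400 between MIRLET7F1 and MIRLET7D. MIRLET7A1 held a region in both lists, MIRLET7F1 in the 5xA list and MIRLET7D in neither. On chromosome 22 MIRLET7A3 and MIRLET7B, 863 bases apart, each held a region in both lists. MIR4763 lies between them, 28 bases from MIRLET7B, and held none. On chromosome X MIRLET7F2 held a region in both lists, and MIR98, 850 bases away, in neither. MIR100 and MIR10526, within 10 kb of MIRLET7A2 on chromosome 11, held none.

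MIRLET7C and MIRLET7E also held no region, and neither did MIR99A beside MIRLET7C nor MIR99B and MIR125A beside MIRLET7E. The smallest overlap of a member was 65 bases, and the nearest region to a family hairpin with none in either list lay 856 bases from MIR98, namely the region on MIRLET7F2. For MIRLET7D it was the MIRLET7F1 region, 2416 bases away in the 5xA list. No family member came near the limit of 1 base.

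Transcripts that span the let-7 hairpins held few other regions on the same strand, which is the usual case. Of 20037 protein-coding genes, 3.35% had any region in the WT list and 7.45% in the 5xA list. No such share is given for non-coding genes such as MIR100HG, and nothing is read from the counts below. MIR100HG around MIRLET7A2, MIRLET7IHG around MIRLET7I and HUWE1, a ubiquitin ligase gene around MIRLET7F2, held the let-7 region and no other in either list. MIRLET7BHG and the gene LOC124905135, which both span MIRLET7A3 and MIRLET7B, each held 2 regions in each list, those on the hairpins. MIRLET7A1HG held 1 WT and 2 5xA regions, those on MIRLET7A1 and MIRLET7F1. WDR82, the gene around MIRLET7G, held 2 5xA regions, the one on the hairpin and one 11440 bases from it, and 0 WT regions. Within 10 kb of a member hairpin, the other regions on its strand were those of its let-7 neighbours in both lists.

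Some of these regions cannot be assigned to a gene by the mature arm alone. From the first base of the 5p arm, MIRLET7A1, MIRLET7A2 and MIRLET7A3 are identical to each other for 23 bases, 1 base past the arm. MIRLET7F1 and MIRLET7F2 are identical for 22 bases, the length of the arm. MIRLET7A1 and MIRLET7A3 also share their 3p arm, let-7a-3p, of 21 bases. A read from a mature let-7a-5p, let-7f-5p or let-7a-3p molecule fits each of its genes equally well. How such reads were placed was not given in the sources used here. MIRLET7B, MIRLET7G and MIRLET7I do not share their 5p arm with another gene of the family.

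The miRNA genes with regions most like those of let-7 were found by the distance of both region ends from the hairpin ends in both lists, 4 values a gene. Over the 6 let-7 genes in both lists the medians were 5 bases inside the hairpin at the 5′ end in each list, and the 3′ end lay at -5.5 bases (WT) and -5 bases (5xA) from the hairpin's last base. Of 15 other miRNA genes in both lists, MIR18A was nearest, with a mean absolute difference of 2.12 bases from these medians. MIR21 followed at 3.88, MIR1225 at 5.62, MIR16-1 at 6.62 and MIR1296 at 7.88. The let-7 genes themselves ranged from 0.125 (MIRLET7A1) to 3.38 (MIRLET7B), so MIR18A lay within their range. The measure depends on how far the annotated hairpin extends past the arms.

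Genes that make, hold back or carry let-7 are transcripts in which AGO2 regions were also sought, on a list of 18. DICER1, the nuclease that cuts let-7 precursors, held 4 WT and 8 5xA regions on its strand. AGO2 held 3 in each list, AGO4 1 in each, and KHSRP, an RNA-binding protein that aids let-7 maturation, 1 WT and 2 5xA regions. The 14 others held none. The same 4 of 18 genes thus had a region in each list, where 3.35% of 20037 protein-coding genes had one in the WT list and 7.45% in the 5xA list, genes that these cells do not express included. The list was written with regions at some of its members known, and nothing is read from this count. The genes without a region included DROSHA and DGCR8, which cut the primary transcript, the exporter XPO5, the LIN28A and LIN28B repressors of let-7, and TUT4, TUT7 and DIS3L2, which tail and degrade let-7 precursors. AGO2, LIN28A, TUT4 and HNRNPA1 were counted on both strands, since their strand was not in the tables used.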

How the data were processed

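eCLIP libraries were amplified with 11 to 15 PCR cycles, per the labels' protocols. The submitters' processing notes name cutadapt 1.9.1, TopHat2 and hg38. The region caller, its threshold, the use of input and knockout libraries and how replicates were merged were not given in the sources used here. Deposited by the authors were 2 region lists with 6 columns, without read counts. The deposited score is 0 in every row and was not used. The sample descriptions name the same list for both IP replicates of a genotype, and the other 8 samples were not analysed here. Positions are 1-based.

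Hairpins, arms and sequences came from RefSeq tables of GRCh38.p14, in which all 12 let-7 family genes matched by symbol. Overlaps of at least 1 base on the same strand were counted in Python 3.11.15, tested on simulated data, and gave the same number of shared regions as bedtools 2.31.1. Gene strands came from the RefSeq promoter table. No test was run. The alternatives were an overlap of 50% of the hairpin or arm, no strand, reciprocal overlaps of 50% and 80%, joining within 50 bases, and ends taken from the arms. Counting by mature arm was added after seeing the data. The members and lists were chosen with earlier results of these data known. The text names all members, the rest of the family, miRNA genes within 10 kb, 18 biogenesis genes, and the 5 miRNA genes with most similar region ends. WDR82, HUWE1 and the other genes that span a hairpin were named after their values were seen.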

Additional observations from a re-analysis of the deposited data

How the results depend on the processing

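The numbers of let-7 genes in the WT list (6), in the 5xA list (8) and in both (6) were the same with an overlap of 50% of the hairpin, with 50% of a mature arm and without strand. These settings could not change the counts. Each region covered at least 74.7% of its hairpin and the whole 5p arm, and no region met the family hairpins on the opposite strand. The 6 shared regions were the same in number at reciprocal overlaps of 50% and 80% and within 50 bases, and the median widths were the same when regions within 50 bases were joined. No shared end moved by over 3 bases and no other region lay within 50 bases, so these outcomes were fixed too. Of 26 alternative values 17 equalled the main one, all of them under these fixed settings, and nothing is read from that number. Counted by distinct 5p arm, chosen after seeing the data, the WT list held 4 and not 6 and the 5xA list 5 and not 8. The number in both lists was 4 and not 6. In each list 3 genes share let-7a-5p, and in the 5xA list 2 share let-7f-5p. Measured over the span from the 5p arm to the 3p arm, without MIRLET7F2, the median share covered was 97.2% (WT) and 95.7% (5xA). Measured from the mature arms and not from the hairpin ends, the median offset of the 5′ end was 0 bases in the WT list and 0 bases in the 5xA list, and that of the 3′ end was -2 and -3 bases. No paired analysis was possible because each list pools both IP replicates of its genotype. For the same reason no replicate could be left out. Depth is unknown, so a let-7 gene without a region may lie under the authors' threshold.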
